A study of Homo sapiens with 12 samples.

Results

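Genes on the short arm of chromosome 17, taken as the first 20 Mb of the chromosome in hg19, were examined in wild-type (WT) MDA-MB-231 cells and in cells of the same line that lack a regulatory stretch of the ETS1 promoter (ΔCRE, labelled KO). A member was any entry of the deposited expression table that ended at or before 20 Mb on chromosome 17 and had a mean of at least 0.5 FPKM over the 6 WT libraries. FPKM is the number of sequenced fragments of a transcript per kilobase of its length, scaled to the fragments mapped in the library. The rule kept 203 of the 24331 entries of the table, which was 203 of the 365 entries below 20 Mb, and the other 162 fell under the WT limit. The stretch was singled out because ΔCRE values there lay below WT values at 6 and 24 h, and the rule also named 1 ΔCRE library of 0 h. The ΔCRE to WT ratios are therefore a description, without a test.

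MDA-MB-231 is a human breast cancer line with mesenchymal features, and ETS1 is a transcription factor that binds sequences around a GGAA core. Both cell groups were left unstimulated (0 h) or stimulated with PMA and Ionomycin, an activator of protein kinase C and a calcium ionophore, for 6 or 24 h, with 2 libraries for each cell type and time, 12 in all. The ΔCRE cells were made by transient transfection of Cas9 with a pair of guide RNAs that remove NFAT and NF-κB sites upstream of ETS1, followed by a screen of clones. How many clones the ΔCRE libraries came from is not given in the sources used here, so the deletion and the history of the edited cells cannot be told apart. ETS1 itself was at 24.0 and 23.7 FPKM in WT at 0 h, 139 and 145 at 6 h, and 36.2 and 39.7 at 24 h. The ΔCRE libraries had 62.8 and 62.2 FPKM at 6 h and 29.3 and 30.7 FPKM at 24 h, with 16.5 FPKM in replicate 2 at 0 h.

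The library labelled KO 0 h replicate 1 stood apart. Its 6 gut epithelium markers (CDH17, KRT20, VIL1, CDX2, LGALS4 and EPCAM) summed to 2075 FPKM, against 2.15 to 3.39 FPKM in the other 11 libraries, and its 5 MDA-MB-231 markers (VIM, CD44, AXL, SPARC and CAV1) summed to 1485 FPKM against 1820 to 3127 FPKM. VIM was lower, at 1200 FPKM against 1543 to 2539, while SPARC was higher, at 44.8 FPKM against 5.56 to 12.6. CD44, AXL and CAV1 lay within the range of the others over all times. Against the 0 h libraries alone, AXL was lower, at 51.1 FPKM where WT had 115 and 115 and ΔCRE replicate 2 had 125. CAV1 was lower as well, at 113 FPKM against 242, 266 and 275, while CD44, at 76.2 FPKM, stayed within their 75.9 to 89.3. Of 5 luminal and epithelial genes, ESR1, PGR and CDH1 were at or near 0 in the other 11 libraries, ERBB2 was at 9.68 to 15.4 FPKM and EPCAM at 2.02 to 3.38 FPKM. That library is left out below unless it is named, so that ΔCRE at 0 h rests on replicate 2. FPKM summed to 566255 to 651080 in the 11 libraries. The table gives no read counts, and the relative depth read from its low values ranged from 0.732 to 1.20 with WT 0 h replicate 1 as the unit.

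The short arm of chromosome 17 is rich in genes and carries subunits of RNA polymerase II, the spliceosome, the ribosome and the proteasome, next to genes of cell adhesion and signalling. RNA levels do not measure copy number, and copy number was not tested. In bulk RNA, fewer cells that express a gene and less RNA in each cell cannot be told apart.

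The members formed a low stretch in ΔCRE cells. The median ΔCRE to WT ratio of the 203 members was 0.842 at 6 h, with the middle 50% of members between 0.778 and 0.914, and 183 members lay below 1. At 24 h the median was 0.823 (middle 50% 0.764 to 0.886), and 194 members lay below 1. In the single 0 h ΔCRE library the median was 0.864 (middle 50% 0.786 to 0.924), with 182 members below 1. The 519 entries of chromosome 17 past 25 Mb that met the same WT limit had medians of 1.04, 1.01 and 1.0 at 0, 6 and 24 h, and the 11396 entries on other chromosomes had medians of 1.0, 1.01 and 1.01. Below 1 at all 3 times were 166 members (81.8%), against 21.4% of the entries on other chromosomes. The members together made up 2.64% to 2.76% of the FPKM sum in the WT libraries and 2.18% to 2.29% in the 5 ΔCRE libraries, with no overlap between the cell types.

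**Figure D1:**
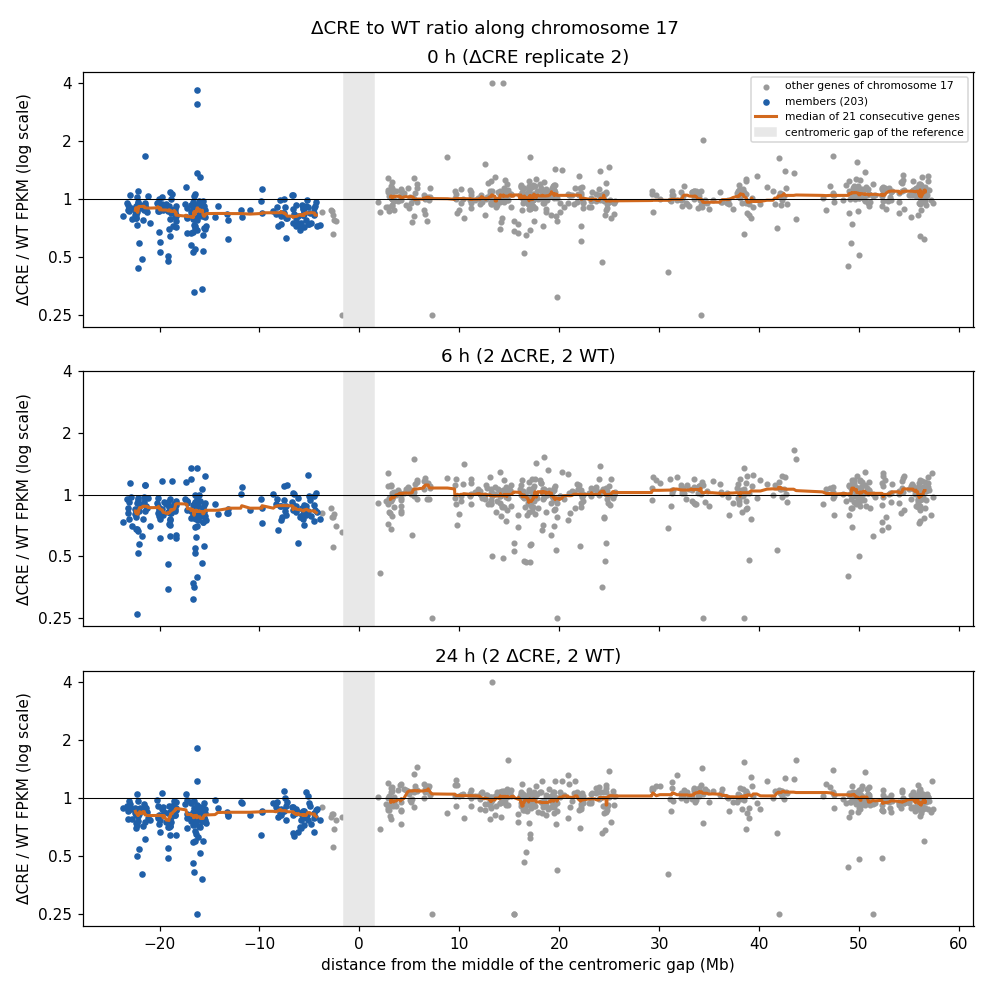
Ratio of ΔCRE to WT mean FPKM (log scale, ratios beyond 0.25 or 4 drawn at the edge) for each entry of chromosome 17 with a WT mean of at least 0.5 FPKM, against the distance in Mb from the middle of the centromeric gap, at 0, 6 and 24 h. Blue points are the 203 members, grey points the other entries of the chromosome, and the line is the median of 21 consecutive entries. The line stays between 0.793 and 0.904 over the members at 6 h and lies around 1 on the far side of the gap.

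The ratio was also taken for each ΔCRE library. The stretch was chosen from these same libraries, so their low medians describe it and do not test it. Divided by the mean of both WT libraries of its time, the median over members was 0.855 in ΔCRE 6 h replicate 1 and 0.827 in replicate 2, 0.832 in ΔCRE 24 h replicate 1 and 0.809 in replicate 2, and 0.864 in ΔCRE 0 h replicate 2. Set against each other, replicate 2 over replicate 1 gave member medians of 0.961, 0.967 and 0.976 in WT at 0, 6 and 24 h, and of 0.976 and 0.965 in ΔCRE at 6 and 24 h. In the library labelled KO 0 h replicate 1 the member median was 0.782, but its median past 25 Mb was 1.35, so that library gave no comparable value.

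**Figure D2:**
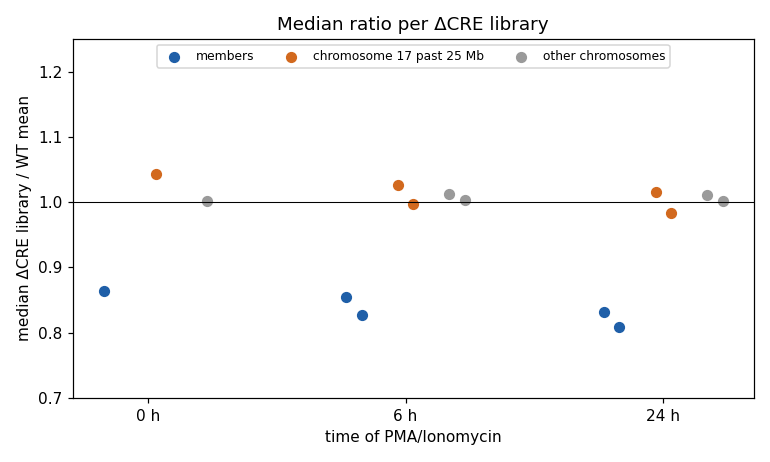
Median ratio of each ΔCRE library to the mean of both WT libraries of the same time, for the members, chromosome 17 past 25 Mb and the other chromosomes. Each point is 1 library, with replicate 2 only at 0 h. All 5 member medians lie between 0.809 and 0.864, below every point of the other sets.

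At 6 h the ΔCRE libraries were the lowest 2 of the 4 for 154 members (75.9%), where 26.1% of all 12126 entries with the same WT limit did so. At 24 h this held for 168 members (82.8%) against 25.5% of all entries, and at both times for 139 members (68.5%) against 14.7%. They were the highest 2 for 8 members at 6 h (28.1% of all entries), for 2 members at 24 h (26.1% of all entries) and for 1 member at both times (13.9% of all entries). These counts come from the contrast by which the stretch was chosen, so nothing is read from them. At 0 h, ΔCRE replicate 2 lay below both WT libraries for 158 members (77.8%), against 32.9% of all entries. That count rests on 1 library, which the rule named too, so nothing is read from it either.

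Low ratios were spread along the stretch. Of the 20 bins of 1 Mb below 20 Mb, 19 had a median ratio below 1 at 6 h, and 20 at 0 h and at 24 h. The exception was the bin from 11 to 12 Mb, with a median of 1.05 over 2 members at 6 h. At least 5 members were in 14 bins, and 14 of 14 had a median below 1 at each time. The lowest and highest bin medians were 0.806 and 0.928 at 6 h, 0.766 and 0.917 at 24 h, and 0.805 and 0.918 at 0 h. Past 25 Mb, 15 of the 39 bins with at least 5 entries had a median below 1 at 6 h, and the range was 0.942 to 1.14. At 24 h this was 17 of 39 bins, with a range of 0.908 to 1.13. Over 21 consecutive members the running median went from 0.793, centred on GPS2, to 0.904, centred on NLRP1, at 6 h. At 24 h it went from 0.766, centred on PSMB6, to 0.886, centred on LOC728392. The same running median past 25 Mb never fell under 0.917 at 6 h or 0.909 at 24 h, above the highest value over members at either time, and its maxima were 1.11 and 1.12. Split into 5 Mb bands from the end of the chromosome, the medians were 0.832 (67 members), 0.838 (77), 0.854 (9) and 0.855 (50) at 6 h, and 0.819, 0.815, 0.846 and 0.844 at 24 h. The third band, between 10 and 15 Mb, is poor in members, and the values there rest on few genes.

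The 20 Mb limit did not mark the end of the low ratios. The last members before the limit were ALDH3A2, a fatty aldehyde dehydrogenase, with ratios of 0.826 at 6 h and 0.884 at 24 h, and AKAP10, an anchor of protein kinase A, with 0.762 and 0.775. Just outside it SPECC1 had 0.817 and 0.897, and USP22, a deubiquitinase of the SAGA complex, had 0.865 and 0.803. All 8 entries between 20 and 25 Mb lay below 1 at each time, with medians of 0.804, 0.776 and 0.801 at 0, 6 and 24 h. MAP2K3, a p38 MAP kinase kinase in this interval, had 0.801 at 6 h and 0.695 at 24 h. The reference sequence then has its centromeric gap of 3000000 bases (chr17:22263007-25263006). The first entries past it were WSB1, with 0.911 and 1.01, KSR1, with 0.414 and 0.691 at a WT mean of 1.13 FPKM, NLK, with 0.935 and 0.938, and TMEM97, with 1.27 and 1.20. Before the gap, C17orf51 had 0.706 and 0.767 at a WT mean of 5.60 FPKM. MTRNR2L1, the entry nearest the gap, had 0.239, 0.658 and 0.799 at 0, 6 and 24 h, at a WT mean of only 0.986 FPKM. The change from ratios near 0.8 to ratios scattered around 1 thus lay between C17orf51 and the first entries past the gap. Single genes on either side, MTRNR2L1 among them, did not fix it more closely. The WT limit, in turn, separated C17orf107 (0.471 FPKM), EFNB3 (0.472) and GRAPL (0.480) from TMEM102 (0.515), CXCL16 (0.601) and LOC284009 (0.613).

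How even the stretch was depended on expression level. Among the 39 members with a WT mean of 50 FPKM or more, 38 lay below 1 at 6 h and 38 at 24 h, with medians of 0.846 and 0.822. The middle 50% of their ratios spanned 0.0708 at 6 h, where replicate 1 over replicate 2 spanned 0.0609 in WT and 0.0585 in ΔCRE. A ratio of single libraries varies more than a ratio of means over both libraries, so these spans are not on the same footing. At 24 h the span was 0.0877, against 0.0720 between WT replicates and 0.103 between ΔCRE replicates. The 33 members from 0.5 to 2 FPKM had similar medians, 0.829 and 0.790, but spans of 0.335 at 6 h and 0.295 at 24 h, with 0.407 and 0.245 between WT replicates and 0.416 and 0.391 between ΔCRE replicates. Over all members the span was 0.136 at 6 h and 0.122 at 24 h, and on other chromosomes it was 0.178 and 0.168. Members on the forward strand (81 of the 188 matched to the GENCODE annotation) had medians of 0.863 and 0.834, and the 107 on the reverse strand had 0.840 and 0.822. Genes spanning under 10 kb (62) had 0.836 and 0.810, and those of 40 kb or more (53) had 0.859 and 0.862. Of the 188, 177 were protein coding.

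**Figure D3:**
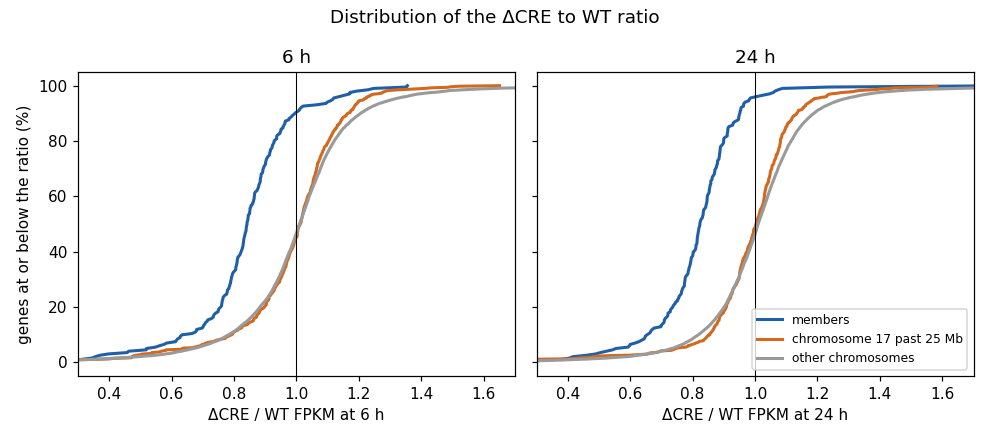
Percent of genes at or below each ΔCRE to WT ratio at 6 h and 24 h, for the 203 members, chromosome 17 past 25 Mb and the other chromosomes. The member curve lies to the left of the others over most of its range and crosses 50% at 0.842 and 0.823.

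Among the most abundant members, ratios ran from below 0.8 to 1. RPL26, a protein of the large ribosomal subunit and the highest member, was at 3538 and 3602 FPKM in WT at 6 h and at 2953 and 2681 in ΔCRE. At 24 h it was at 3626 and 3427 in WT and at 2902 and 2553 in ΔCRE. PFN1, which binds actin monomers, was at 1625 and 1586 in WT and 1342 and 1279 in ΔCRE at 6 h, and at 1690 and 1561 against 1447 and 1255 at 24 h. Neither gene had overlapping groups at 6 or 24 h, and the ratios were 0.789 and 0.773 for RPL26 and 0.816 and 0.831 for PFN1. The next entry, which joins the translation initiation factor EIF4A1 and the SUMO protease SENP3, had 0.866 and 0.928. EIF5A, another translation factor, had ratios of 0.876 and 0.807, and YWHAE, a 14-3-3 adaptor protein, had 0.850 and 0.892. Among the 39 members of 50 FPKM or more, the exceptions were PMP22, a myelin protein (1.003 at 6 h), UBB, a polyubiquitin gene (1.004 at 24 h), and MPRIP, a regulator of myosin phosphatase (1.06 in the 0 h library).

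Members were also grouped by function, with the lists chosen when results of these data were known. The list names are broad labels, and not every member has the named function. Of 25 members for transcription and chromatin, 22 lay below 1 at 6 h and 25 at 24 h, with medians of 0.845 and 0.809. PRPF8, the core protein of the spliceosome, was at 109 and 108 FPKM in WT and 97.9 and 86.7 in ΔCRE at 6 h. POLR2A, the largest subunit of RNA polymerase II, had ratios of 0.835 and 0.853, and GPS2, a subunit of the NCOR corepressor complex, had 0.845 and 0.756.

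Of 16 members for kinases and signalling, 15 lay below 1 at 6 h and 16 at 24 h, with medians of 0.834 and 0.776. CRK, an adaptor of tyrosine kinase signalling, had 0.802 and 0.842. AURKB, the kinase of the chromosomal passenger complex, had 0.846 and 0.782. The 1 exception at 6 h was MAP2K4, a kinase upstream of JNK, which was at 16.0 and 16.2 FPKM in WT and at 17.04 and 18.22 in ΔCRE, a ratio of 1.09 without overlap. At 24 h the ratio of MAP2K4 was 0.949. The 14 members for actin, microtubules and adhesion lay below 1 at both times (medians 0.854 and 0.834), with 0.832 and 0.836 for the motor protein MYO1C and 0.844 and 0.797 for FLII, an actin-severing protein of the gelsolin family.

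The list named mitochondria had 14 members with medians of 0.850 and 0.822. It also holds FXR2, an RNA-binding protein, SAT2, an acetyltransferase, and SHMT1, a cytosolic enzyme, which are not mitochondrial genes. C1QBP, a protein of the mitochondrial matrix, had 0.904 and 0.821. ACADVL, which starts the oxidation of very long fatty acids, had 0.793 and 0.785. The 10 members for translation and RNA had 0.871 and 0.845, and 9 for ubiquitin, proteasome and autophagy had 0.851 and 0.847. In the last group PSMB6, a proteasome subunit, had 0.874 and 0.911, and GABARAP, a protein of the autophagosome membrane, had 0.821 and 0.811. The 6 members for lipid and small molecule metabolism had 0.783 and 0.829, and among them ASGR1, a receptor subunit, and B9D1, a cilium protein, are not metabolic enzymes. The list of cytokines, immunity and secretion had lower medians than the other lists, 0.576 and 0.653 over 7 members, all of them below 1 at both times. At 6 and 24 h its members had 0.261 and 0.504 (SCARF1), 0.345 and 0.554 (CXCL16), 0.519 and 0.880 (SERPINF2), 0.576 and 0.543 (SERPINF1), 0.633 and 0.871 (NLRP1), and 0.806 and 0.776 (VAMP2). The entry of TNFSF12 and TNFSF13 had 0.619 and 0.653, which are values of both ligands together. CXCL16, SERPINF2 and SCARF1 had WT means of only 0.601, 0.933 and 1.72 FPKM, levels at which replicates varied most. The rest of the list had WT means from 3.90 (NLRP1) to 15.6 FPKM (VAMP2).

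Genes that departed from the stretch were few. The rule asked for a mean of at least 1 FPKM over 11 libraries, no overlap at 6 and at 24 h, and a ratio of at most 0.5 or at least 1.3 at both times. Of 182 members with that mean, 3 departed downward (1.65%) and none upward. On other chromosomes 46 of 10551 entries met the lower limit (0.436%) and 175 the upper (1.66%). The limits were set from a ratio of 1, not from the member medians of 0.842 and 0.823. Members could thus meet the lower limit more easily, and the upper less easily, than entries on other chromosomes, with medians of 1.01. The shares are not on the same footing, use the contrast of the rule and were not tested. The count rested on the limit, as settings chosen after seeing the data showed. With 1 added to every FPKM only CLDN7 met it, with ratios of 0.523 at 24 h for DLG4 and of 0.558 and 0.544 for ARRB2. ARRB2 also missed it without ΔCRE 6 h replicate 1 (0.501 at 6 h) or without WT 24 h replicate 1 (0.504 at 24 h). Under TPM, and without WT 24 h replicate 2 or ΔCRE 24 h replicate 2, SCARF1 joined the 3 genes, and without ΔCRE 24 h replicate 1 ASGR1 did. Between 0.7 and 1 at both times lay 141 of the 182 members. The log2 ratios at 6 and 24 h, which come from different libraries of the same cells, had a Pearson's r of 0.729 and a Spearman's rho of 0.584 over the 182 genes, which are not independent replicates.

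DLG4 encodes PSD-95, a scaffold protein of synapses and cell junctions. It was at 5.09 and 5.25 FPKM in WT and at 1.63 and 1.59 in ΔCRE at 6 h, and at 7.91 and 7.03 against 3.29 and 3.57 at 24 h. At 0 h the WT libraries had 3.60 and 3.81 FPKM and ΔCRE replicate 2 had 1.97. The groups did not overlap at any of the 3 times, and the ratios were 0.532, 0.311 and 0.459 at 0, 6 and 24 h. The entry shares its locus (chr17:7093210-7128586) with 2 others, of which ACADVL kept ratios of 0.793 and 0.785 in the same libraries.

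CLDN7 encodes a claudin of epithelial tight junctions. It was at 4.41 and 3.61 FPKM in WT and at 1.08 and 1.77 in ΔCRE at 6 h, and at 17.9 and 18.3 against 7.56 and 7.52 at 24 h. At 0 h it was at 5.43 and 6.41 in WT and at 1.97 in ΔCRE replicate 2. The ratios were 0.332, 0.356 and 0.417, without overlap at any time. In the library labelled KO 0 h replicate 1, CLDN7 was at 133 FPKM.

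ARRB2 encodes beta-arrestin 2, which uncouples and internalises G protein-coupled receptors. It was at 4.45 and 4.33 FPKM in WT and at 1.822 and 2.198 in ΔCRE at 6 h, and at 8.61 and 8.11 against 4.05 and 4.13 at 24 h. WT at 0 h had 6.29 and 6.24 FPKM and ΔCRE replicate 2 had 2.99. Its ratios were 0.477, 0.458 and 0.489, the most even of the 3 genes over time.

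**Figure D4:**
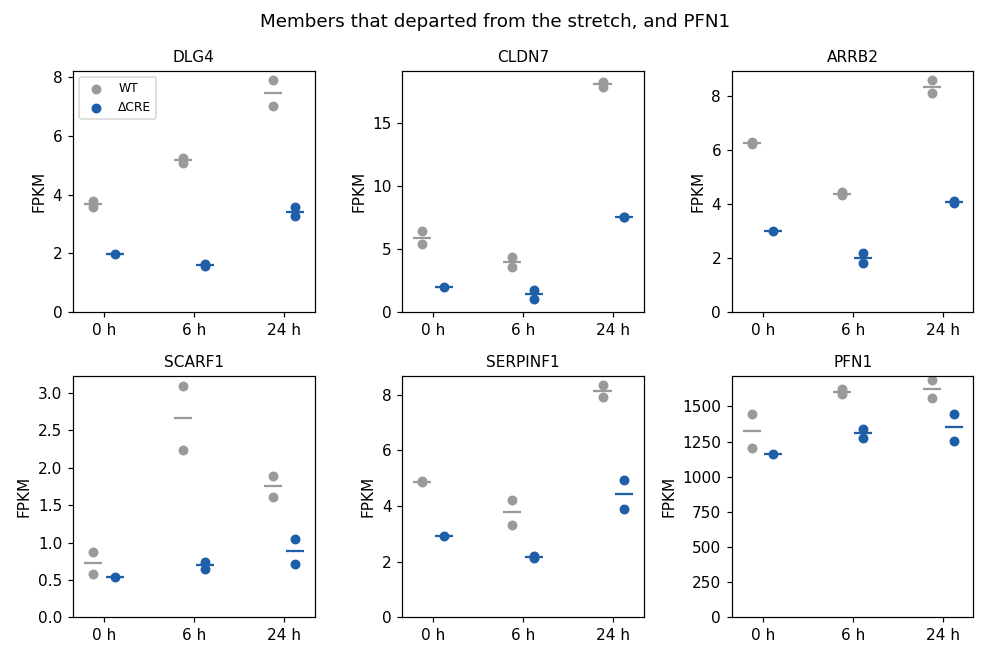
FPKM in each WT (grey) and ΔCRE (blue) library at 0, 6 and 24 h for the 3 departing genes, for SCARF1 and SERPINF1, which lay near the limit, and for PFN1 as an abundant gene of the stretch. Points are libraries and bars are means, with 1 ΔCRE library at 0 h. The ΔCRE means of DLG4, CLDN7 and ARRB2 lie at or below 0.489 of the WT means at 6 and 24 h, and those of PFN1 at 0.816 and 0.831.

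Because the edited gene encodes an ETS factor, the 250 bases before the RefSeq start of the 3 departing genes are shown, together with those of PFN1 as an abundant gene that kept to the stretch. Starts differ between annotations. By GENCODE the windows of CLDN7 and PFN1 lie inside the gene, and that of ARRB2 runs past the gene start. The sequences are from the RefSeq promoter table (GRCh38.p14), and each has 1 exact match on chromosome 17 of GRCh37, whose coordinates are given. Capitals mark GGAA, or TTCC where the core lies on the other strand.
DLG4, chr17:7123370-7123619, reverse strand: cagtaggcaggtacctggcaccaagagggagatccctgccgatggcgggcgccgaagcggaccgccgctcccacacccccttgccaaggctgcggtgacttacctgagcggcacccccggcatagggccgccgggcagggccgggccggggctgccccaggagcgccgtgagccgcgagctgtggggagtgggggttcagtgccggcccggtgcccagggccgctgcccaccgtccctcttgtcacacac
CLDN7, chr17:7166533-7166782, reverse strand: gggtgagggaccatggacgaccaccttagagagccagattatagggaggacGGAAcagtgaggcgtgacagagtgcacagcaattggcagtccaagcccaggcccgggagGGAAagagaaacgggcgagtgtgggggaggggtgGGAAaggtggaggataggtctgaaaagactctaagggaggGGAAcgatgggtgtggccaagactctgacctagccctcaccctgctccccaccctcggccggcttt
ARRB2, chr17:4613677-4613926, forward strand: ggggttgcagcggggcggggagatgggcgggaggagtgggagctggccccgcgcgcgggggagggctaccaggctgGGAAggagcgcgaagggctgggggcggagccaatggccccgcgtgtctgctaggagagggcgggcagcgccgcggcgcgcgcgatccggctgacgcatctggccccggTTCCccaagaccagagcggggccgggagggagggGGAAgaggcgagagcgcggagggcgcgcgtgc
PFN1, chr17:4851826-4852075, reverse strand: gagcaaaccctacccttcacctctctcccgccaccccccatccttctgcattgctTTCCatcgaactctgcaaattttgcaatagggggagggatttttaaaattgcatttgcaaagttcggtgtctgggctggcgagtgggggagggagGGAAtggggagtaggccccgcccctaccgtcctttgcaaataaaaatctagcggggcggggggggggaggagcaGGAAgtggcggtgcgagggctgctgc

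The GGAA core was present 4 times in the CLDN7 window, 3 times in that of ARRB2, 3 times in that of PFN1 and 0 times in that of DLG4, with a median of 3 over all 27305 promoters of the table. At least 1 core was present in 92.1% of the 152 matched member promoters and in 92.8% of all promoters. The longer motif CCGGAA, which contains the core and was searched on both strands (TTCCGG), was in none of the 4 windows shown. It was in 42 of the 152 member promoters (27.6%), in 26.1% of the 8885 matched promoters of entries with the same WT limit, and in 14.8% of all promoters. Members with CCGGAA had median ratios of 0.842 and 0.823, and the 110 without it had 0.864 and 0.831. A match is a description of the letters only.

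Around the limits of the rule, values graded into the stretch. With both ratios at most 0.6, SERPINF1, CHRNB1, SNORD10, SCARF1 and ASGR1 joined the 3 genes, and with at most 0.7 also RAI1 and the TNFSF12 and TNFSF13 entry. These and the genes of the next paragraph were chosen after their values were seen. SCARF1, a scavenger receptor, was at 3.10 and 2.24 FPKM in WT and at 0.650 and 0.741 in ΔCRE at 6 h. At 24 h the WT libraries had 1.89 and 1.62 FPKM of SCARF1 and the ΔCRE libraries 0.717 and 1.05, so its ratio moved from 0.261 to 0.504. SERPINF1, a secreted serpin known as PEDF, was at 8.36 and 7.90 in WT and 4.94 and 3.89 in ΔCRE at 24 h, with ratios of 0.597, 0.576 and 0.543 at 0, 6 and 24 h. CHRNB1, the beta subunit of the muscle acetylcholine receptor, had 0.552, 0.548 and 0.597. SNORD10, a small RNA entry inside the EIF4A1 locus, ran from 0 to 27.5 FPKM over the 11 libraries, too scattered to place.

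Upward, 5 members were at 1 or more at both 6 and 24 h, namely CYB5D2, SNORA48, TRIM16L, PITPNM3 and CENPV. CENPV, a centromere protein, was at 23.1 and 25.2 FPKM in WT and 27.2 and 25.9 in ΔCRE at 6 h, and at 15.6 and 14.8 against 17.2 and 16.0 at 24 h. It was the single member above WT without overlap at both times, by ratios of 1.099 and 1.087. PITPNM3, a membrane-associated phosphatidylinositol transfer protein, had 1.16, 1.15 and 1.06 at 0, 6 and 24 h, with a WT mean of 1.34 FPKM. SNORA48 ranged from 0 to 57.0 FPKM over the 11 libraries.

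The stretch was also read for its response to PMA and Ionomycin, a contrast that the choice of members did not use. The WT limit did use the stimulated WT libraries, so entries low at 0 h could pass through later values. TMEM102, for one, was at 0.287 and 0.333 FPKM in WT at 0 h and at 0.958 and 0.906 at 24 h. The same limit held for all entries tested. limma was fitted to log2(FPKM + 1) of all 12126 entries in 11 libraries, with p-values adjusted over all of them and calls made under 0.05. Differences on this scale understate those of low genes. Of the 203 members, 85 were called in WT at 6 h against 0 h (background 43.3%), 59 higher (22.4%) and 26 lower (20.9%). At 24 h against 0 h, 112 were called (53.6%), 75 higher (26.6%) and 37 lower (27%). Without WT 6 h replicate 1 fewer members were called at 6 h, and fewer of all entries. TPM, a scale on which every library has the same sum, gave 44 members higher and 54 lower at 6 h. Over all 12126 entries it gave 1977 higher and 3746 lower, and moved their median difference from -0.01 to -0.12. Directions at 6 h are thus relative to the scaling. At 24 h TPM gave 76 members higher and 40 lower, with 3189 and 3146 over all entries. Both comparisons share the WT 0 h libraries. Among called members, 3 rose by 1 or more on the log2 scale at 6 h and 11 at 24 h, and none fell by as much. The same share was not counted over all entries, so nothing about the stretch is read from these numbers.

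KDM6B, a demethylase of lysine 27 on histone H3, was at 1.19 and 0.959 FPKM in WT at 0 h, 5.65 and 4.88 at 6 h and 4.11 and 4.03 at 24 h. In ΔCRE cells it was at 5.22 and 5.22 at 6 h and 2.90 and 2.96 at 24 h. It rose by 1.59 ± 0.09 (SE, n = 2 libraries a group) in WT at 6 h (limma, adjusted p = 1.89e-06) and was 1.29 ± 0.09 above 0 h at 24 h (limma, adjusted p = 6.08e-06). The WT groups at 0 h and at both later times did not overlap.

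CTC1, a protein of the telomere-capping CST complex, was at 3.83 and 4.17 FPKM in WT at 0 h, 8.72 and 8.64 at 6 h and 12.1 and 12.1 at 24 h. It was higher by 0.95 ± 0.06 at 6 h (limma, adjusted p = 6.67e-06) and by 1.39 ± 0.06 at 24 h (limma, adjusted p = 6.70e-07), with a continuing rise in means over the 3 times. In ΔCRE cells CTC1 was at 3.42, then 6.38 and 6.40, then 9.38 and 8.94 FPKM, and so followed the same order below the WT values.

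SCARF1 rose by 1.08 ± 0.15 in WT at 6 h (limma, adjusted p = 0.000419) from 0.577 and 0.878 FPKM. KCTD11, an adaptor of cullin 3 ubiquitin ligases, went from 2.90 and 2.74 to 6.69 and 6.66 FPKM, a rise of 1.01 ± 0.07 (limma, adjusted p = 1.10e-05). ASGR1, a subunit of the asialoglycoprotein receptor, went from 0.713 and 0.844 to 2.05 and 2.47 FPKM (0.87 ± 0.11, limma, adjusted p = 0.000327). All 3 genes had a 6 h group above the 0 h group without overlap.

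Among the members that fell in WT at 6 h, DNAH2, an axonemal dynein heavy chain, went from 3.18 and 3.37 to 1.299 and 1.298 FPKM and fell by 0.90 on the log2 scale (SE 0.09, limma, adjusted p = 5.41e-05). SREBF1, a regulator of fatty acid and cholesterol synthesis, went from 42.6 and 37.1 to 25.1 and 23.4 FPKM and fell by 0.69 (SE 0.07, limma, adjusted p = 0.000103). TOM1L2, an endosomal trafficking protein, fell by 0.62 (SE 0.09, limma, adjusted p = 0.000595) and ALDH3A2 fell by 0.59 (SE 0.05, limma, adjusted p = 4.65e-05). ATP2A3, a calcium pump of the endoplasmic reticulum, was at 0.726 and 1.101 FPKM at 0 h and 0.290 and 0.427 at 6 h and fell by 0.49 (SE 0.13, limma, adjusted p = 0.0133). That call was lost without WT 0 h replicate 2 (limma, adjusted p = 0.0843) and without WT 6 h replicate 1 (limma, adjusted p = 0.0804).

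At 24 h CD68, a lysosomal membrane glycoprotein best known from macrophages, went from 33.8 and 26.1 FPKM in WT to 91.7 and 86.7, a rise of 1.55 ± 0.10 (limma, adjusted p = 5.40e-06). The 6 h values, 34.2 and 32.9 FPKM, lay next to those of 0 h. CLDN7 rose by 1.47 ± 0.14 (limma, adjusted p = 3.70e-05), after lower values at 6 h. SLC16A13, a member of the monocarboxylate transporter family, went from 1.68 and 1.87 to 6.43 and 5.63 FPKM (1.34 ± 0.18, limma, adjusted p = 0.000282).

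The largest falls in WT at 24 h were those of NXN and CENPV. NXN, or nucleoredoxin, a redox regulator of Wnt signalling, went from 29.7 and 29.1 to 16.4 and 15.2 FPKM and fell by 0.85 (SE 0.06, limma, adjusted p = 7.44e-06). CENPV went from 29.7 and 26.8 to 15.6 and 14.8 FPKM and fell by 0.85 (SE 0.07, limma, adjusted p = 2.53e-05). DNAH2 fell by 0.67 (SE 0.09, limma, adjusted p = 0.000216), DHX33, an RNA helicase, fell by 0.67 (SE 0.06, limma, adjusted p = 3.60e-05), and SREBF1 fell by 0.61 (SE 0.07, limma, adjusted p = 0.000156).

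By function, 6 of the 7 members for cytokines, immunity and secretion rose in WT at 24 h and none fell, with a median difference of 0.63, against -0.01 over all entries, of which 26.6% rose and 27% fell. The same shares stand behind the counts of the other lists, which were chosen with results known. Those called were CXCL16, the TNFSF12 and TNFSF13 entry, SERPINF1, SERPINF2, SCARF1 and NLRP1. CXCL16 was at 0.359 and 0.362 FPKM in WT at 0 h and met the WT limit only through its later values. Of the 16 members for kinases and signalling, 9 rose and 4 fell at 24 h, among the latter MAP2K4 and AURKB. Of the 14 for actin, microtubules and adhesion, 6 rose and 4 fell. Transcription and chromatin had 6 that rose and 5 that fell among 25. The list named mitochondria had 3 and 4 among 14, with FXR2 and SAT2 among the 3 and SHMT1 among the 4. Ubiquitin, proteasome and autophagy had 4 and 2 among 9. Lipid and small molecule metabolism had 2 and 2 among 6, and translation and RNA 0 and 1 among 10.

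**Figure D5:**
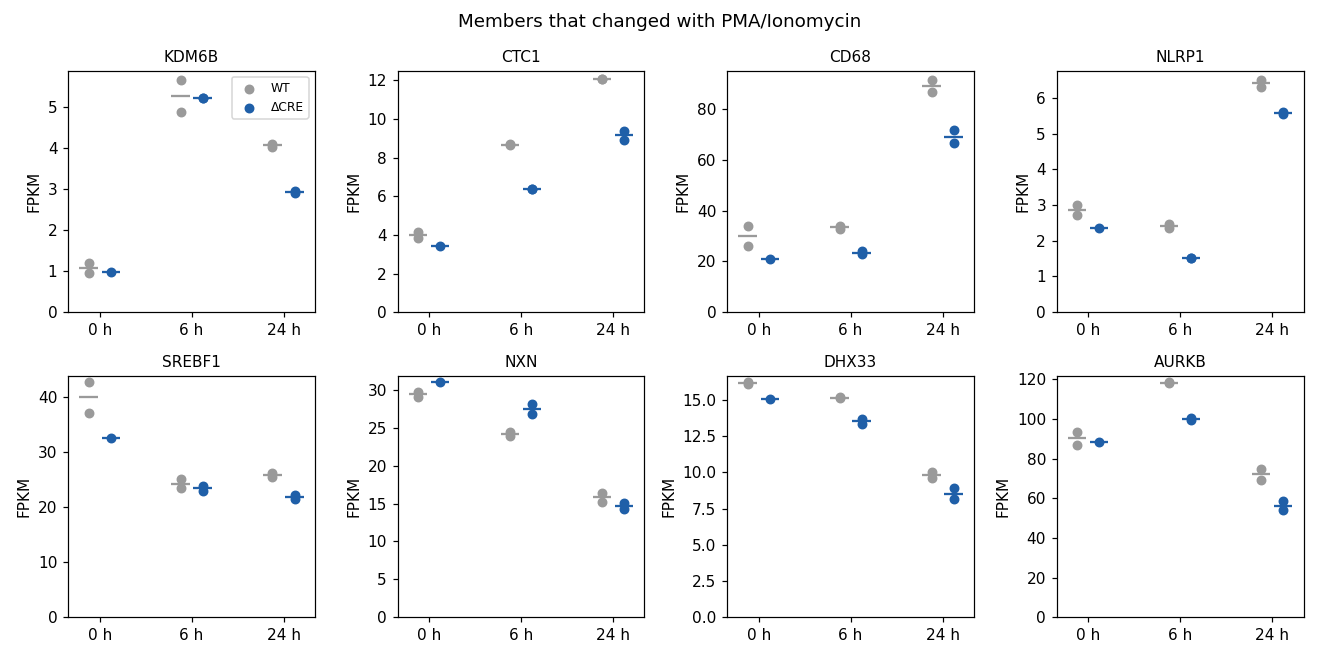
FPKM in each WT (grey) and ΔCRE (blue) library at 0, 6 and 24 h for 8 members called in limma comparisons between times. Points are libraries and bars are means, with 1 ΔCRE library at 0 h. KDM6B is high at 6 h, CD68 and NLRP1 are high at 24 h in both cell types, and NXN and DHX33 are lowest at 24 h.

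From 6 to 24 h the response was compared in each cell type, without shared libraries. In WT 105 members were called (background 46.4%), 54 higher (21.3%) and 51 lower (25.1%). In ΔCRE 112 were called (48.5%), 53 higher (22.6%) and 59 lower (25.9%). TPM values gave 75 members higher and 32 lower in WT, and 70 higher and 38 lower in ΔCRE. Over all entries they gave 3508 higher and 1840 lower in WT, and 3501 and 2124 in ΔCRE. In WT they moved the median difference of all entries from -0.02 to 0.08. Called in both were 92 members, 87.6% of the WT list and 82.1% of the ΔCRE list, and 92 of 92 had the same direction, 46 higher and 46 lower. Over all 12126 entries the shares were 82.9% and 79.4%, and 99.8% of those called in both had the same direction, so the members were close to the background here.

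In ΔCRE cells CLDN7 rose by 1.83 ± 0.14 from 6 to 24 h (limma, adjusted p = 1.68e-05), and in WT by 1.93 ± 0.14 (limma, adjusted p = 1.54e-05), from different starting levels. CD68 went from 23.1 and 23.9 to 71.8 and 66.6 FPKM in ΔCRE (1.52 ± 0.10, limma, adjusted p = 1.04e-05). NLRP1, a sensor that assembles an inflammasome, went from 1.52 and 1.53 to 5.61 and 5.56 FPKM (1.38 ± 0.07, limma, adjusted p = 2.28e-06), and in WT from 2.47 and 2.36 to 6.31 and 6.51. The other departing genes rose in both cell types as well, DLG4 by 0.76 ± 0.08 in ΔCRE (limma, adjusted p = 9.83e-05) and 0.46 ± 0.08 in WT (limma, adjusted p = 0.00175), and ARRB2 by 0.76 ± 0.08 and 0.80 ± 0.08 (limma, adjusted p = 9.70e-05 and 9.04e-05). NXN fell by 0.86 in ΔCRE (SE 0.06, limma, adjusted p = 1.19e-05). CLUH, which binds mRNAs of mitochondrial proteins, fell by 0.84 (SE 0.07, limma, adjusted p = 2.11e-05), and AURKB fell by 0.82 (SE 0.06, limma, adjusted p = 1.81e-05).

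Whether the ΔCRE to WT difference itself changed from 6 to 24 h was tested as an interaction. limma called 0 of the 203 members, with 19 (9.36%) at an unadjusted p under 0.05, against 7.01% of all entries, and called 23 of all 12126 entries (0.19%), of which 0.165% were higher and 0.0247% lower at 24 h. The smallest value among members was that of MAPK7, the kinase ERK5, whose difference was lower by 0.37 at 24 h (log2 difference -0.37 ± 0.10, limma, adjusted p = 0.352). MAPK7 was at 10.9 and 11.1 FPKM in WT and 9.97 and 9.72 in ΔCRE at 6 h, and at 8.84 and 8.17 against 5.44 and 5.89 at 24 h. For DLG4 the interaction was 0.31 ± 0.11 (limma, adjusted p = 0.637). With 2 libraries a group, these values do not show that the differences were equal at both times.

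Low ratios over a long run of genes were also present on other chromosomes. The 325 entries of chromosome 10 past 60 Mb had medians of 0.829, 0.854 and 0.860 at 0, 6 and 24 h, and the 213 entries of chromosome 9 past 120 Mb had 0.865, 0.829 and 0.817. These stretches were singled out in the same way, so no test between them and chromosome 17 was made. On chromosome 10 the middle 50% of ratios reached up to 1.18 at 6 h, while on chromosome 9 it ran from 0.761 to 0.911, near the 0.778 to 0.914 of the chromosome 17 members.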

How the data were processed

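Per the labels and the study's methods, poly(A) RNA of 12 libraries (2 biological replicates per cell type and time) was prepared with a stranded kit and sequenced on a NextSeq instrument. The authors' alignments, on hg19, came from TopHat 2.0.12, and the deposited FPKM values came from Cufflinks 2.2.1, with 1 row per locus entry. How the counting treated strand and shared reads is not given in the sources used here, and 70 members share a locus with another entry, so their values are uncertain. Column names of some ΔCRE libraries differ from the sample titles in spelling and were matched by the time row of the header and the replicate number.

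Members and gene lists were chosen with earlier results of these data known. The ratio is the mean FPKM of the ΔCRE libraries divided by that of the WT libraries of the same time. Stimulation was tested with limma (version 3.58.1, R 4.3.3) on log2(FPKM + 1), with a trend, in 1 model of 6 groups and 11 libraries, Benjamini-Hochberg adjusted over 12126 entries and called under 0.05; the fit was first tested on simulated data. FPKM hold no counts, so count models were not used, and no per-value counting interval is given. Named genes were the departing members by the rule in the text, the 5 largest rises and 5 largest falls called in WT at 6 and 24 h, the 3 each way from 6 to 24 h in ΔCRE, and the most abundant members of each list. Alternatives were another pseudocount (0.1), TPM, quantile normalization, another filter or none, no trend, other sets of libraries, a replicate block, and each replicate left out. Values of 1 member are not reported here.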

Additional observations from a re-analysis of the deposited data

Results flagged for a closer look

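3 entries of the stretch that did not meet the WT limit were above 10 FPKM in the library labelled KO 0 h replicate 1, which the main comparisons leave out. TM4SF5, a membrane protein of the tetraspanin-like L6 family, was at 18.8 FPKM there, 0 in ΔCRE 0 h replicate 2 and 0 as the WT mean. GGT6, of the gamma-glutamyltransferase family, was at 13.0 FPKM, against 0.021 in ΔCRE 0 h replicate 2 and 0.039 as the WT mean. ACAP1, an ARF GTPase-activating protein, was at 10.6 FPKM, against 0.042 and 0.146. The gut epithelium markers of the same library summed to 2075 FPKM. Their part in these values was not tested.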

How the results depend on the processing

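Every alternative kept the median ratio of members below 1. With 1 added to every FPKM it was 0.866 at 6 h and 0.846 at 24 h, and with both KO 0 h libraries, a choice made after seeing the data, it was 0.835 at 0 h. Leaving out 1 library gave 0.822 to 0.858 at 6 h, 0.809 to 0.832 at 24 h and 0.852 to 0.873 at 0 h. With the library labelled KO 0 h replicate 1 included, limma called 19 members in WT at 6 h against 0 h and 26 at 24 h against 0 h. From 6 to 24 h it called 16 in WT and 21 in ΔCRE, and all these counts were lower than in the 11 libraries. In the same order, 7.79%, 11.2%, 5.84% and 8.12% of all entries were called. This fit estimates the spread with that library in it. Of the 26 named calls, 10 were lost there and all kept their direction. Leaving out 1 replicate gave 55 to 72, 83 to 102, 74 to 89 and 89 to 95 called members, with the lone sample of a group assumed to vary like the others, and 0 for the interaction. Fewer of all entries were called in each of these fits as well, so nothing about the stretch is read from their counts. A replicate block called 94, 128, 122 and 126 members, and 0 for the interaction. Over all entries it called 51.4%, 60.1%, 53.5%, 55.3% and 0.256%. Same-numbered libraries deviated together by correlations of only -0.026 to 0.121, so the numbers were not taken to pair them. Depth limits the members under 2 FPKM most.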
